A study of Mus musculus with 6 samples.

Results

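The genes described here run the calcium cycle of the heart muscle cell: the pump, release channels, store proteins, junction proteins and exchanger of the sarcoplasmic reticulum and its surroundings. The set was 10 named genes (Ryr2, Ryr1, Jph2, Trdn, Casq2, Casq1, Atp2a2, Pln, Sln and Slc8a1), out of 18193 genes with at least 1 probe set annotated to that gene alone. Each gene was read by its brightest probe set, and its other probe sets were set beside it. They were measured in 3 FOG-2R3K5A and 3 Wild-Type samples of whole hearts from mouse siblings at embryonic day 16.5, each on a one-colour Affymetrix array.

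Zfpm2 encodes FOG-2, which acts in the heart as a partner of GATA factors, and the R3K5A form is known to bind the NuRD complex poorly. Both genotypes came from crosses described in the labels as double heterozygous, with a strain background given as mixed C57/B6 with 129 S6. The labels call the samples biological replicates and give neither the zygosity of the FOG-2R3K5A embryos nor the number of hearts in a sample, so p-values measure the spread between these 6 samples. Hearts had been frozen before RNA extraction, and the labels name no drug or other agent. The comparison asks whether transcripts of calcium handling differ between mutant and Wild-Type hearts.

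In a heart muscle cell, calcium that enters with each action potential opens ryanodine receptors in the sarcoplasmic reticulum, and the calcium they release starts contraction. The SERCA pump then returns calcium to the store, where calsequestrin holds it, while a sodium-calcium exchanger removes the rest across the cell membrane. Several of these proteins exist as paralogs, of which one dominates in the heart and the other in skeletal muscle.

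Values are log2 intensities unless intensity is named, and differences are mutant minus Wild-Type. A gene was tested if its mean exceeded 6.30 log2 units, an intensity of 78.9, and passed at a Benjamini-Hochberg adjusted p under 0.05 by limma over 11113 genes. Array medians ran from 77.5 to 78.4 in mutants and from 77.4 to 84.1 in Wild-Type as intensities. Wild-Type replicate 1 stood apart from its group: over all tested genes it correlated with mutants at 0.984 to 0.990 and with the other Wild-Type arrays at 0.982 to 0.986. On the first principal component (44.5% of the variance) it lay at -1.08, between the mutants at 8.55 to 13.1 and the other Wild-Type arrays at -21.1 and -11.2. Some lung markers varied among mutants. Scgb3a2, a lung secretoglobin, read 9.03, 4.87 and 11.36 in mutants and 4.83, 4.81 and 5.40 in Wild-Type. Sftpc read 6.17, 5.80 and 9.43 in mutants and 5.86 to 6.53 in Wild-Type. Sftpb did not stand out, at 6.04 to 6.88 in mutants and 6.12 to 7.03 in Wild-Type, and Scgb1a1 and Nkx2-1 were under the filter level. The part of lung markers in any result was not tested. Heart muscle markers were bright on all 6 arrays. The summed intensity of 7 of them (Myh6, Tnnt2, Tnni3, Actc1, Ttn, Mybpc3 and Nkx2-5) ran from 57185 to 58604 in mutants and from 55831 to 59746 in Wild-Type. In whole hearts, fewer cells of a type and less RNA per cell cannot be told apart.

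Of the 10 genes 9 were bright enough to test, and 1 passed. Casq1, the calsequestrin known mainly from skeletal muscle, fell, while 0 rose. Among all tested genes 1.76% passed (196 genes), with 0.369% lower and 1.39% higher, and the count of 1 in 9 rests on a single gene. The genotypes did not overlap for 3 of the 9 (Casq1 lower, Casq2 and Pln higher), where 21.2% of all tested genes did not overlap. At an unadjusted p under 0.05 there were 2 (Casq1 and Casq2), against 14.7% of all tested genes. The median difference of the 9 genes was 0.04 and that of all tested genes -0.01. The plot of the 10 genes by array shows how close the genotypes lay for most of them.

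**Figure D1:**
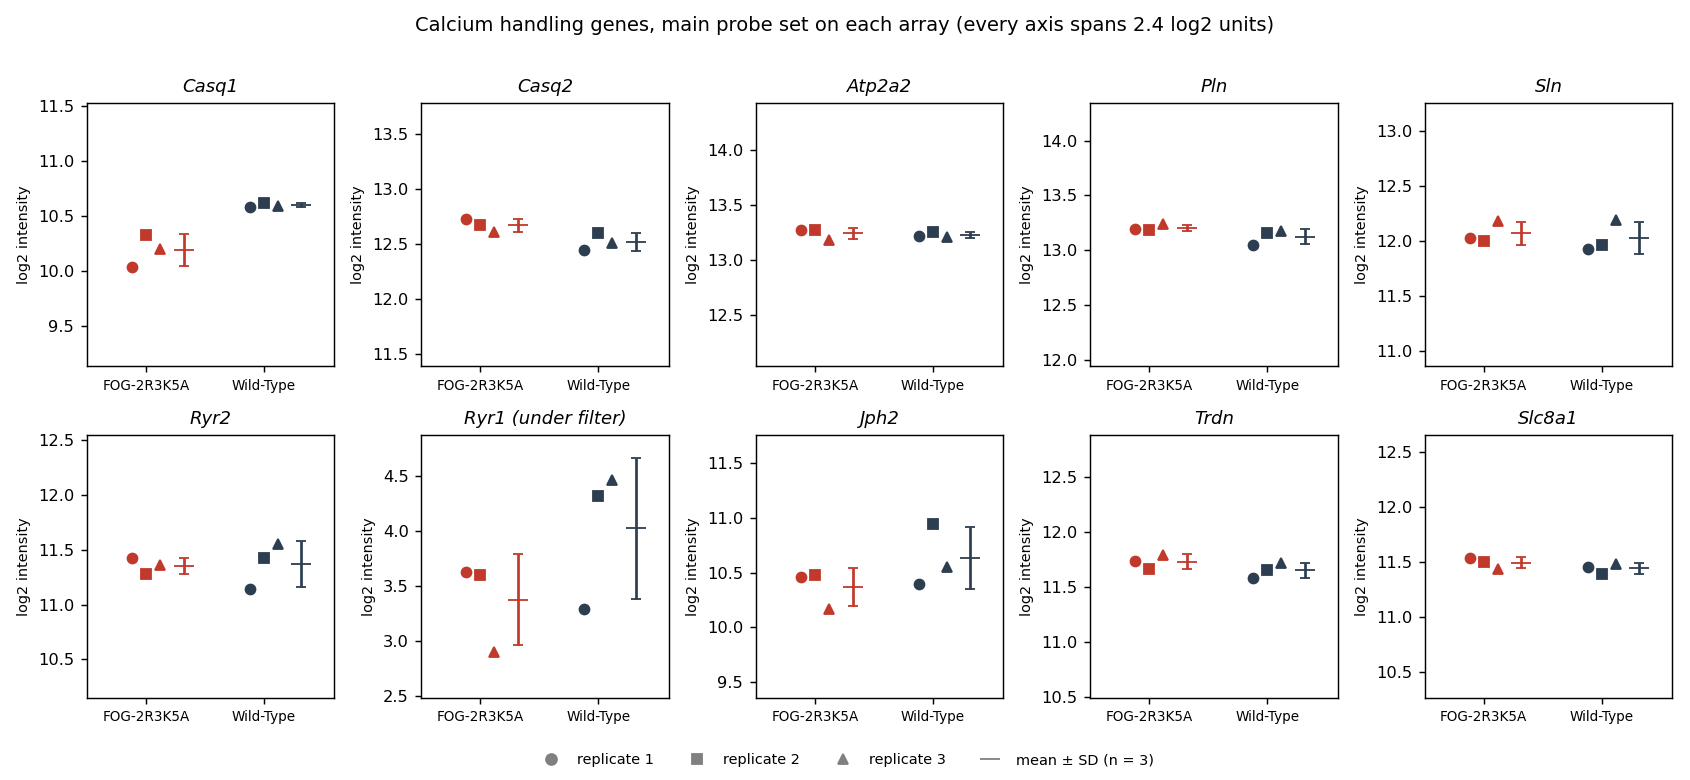
Log2 intensity (vertical axis) of the main probe set of each of the 10 calcium handling genes on each array, FOG-2R3K5A left in red and Wild-Type right in blue. Symbols mark the replicate, and the bar beside them the mean and SD of 3 arrays. All 3 mutant values of Casq1 (10.04 to 10.33) lie below all 3 Wild-Type values (10.59 to 10.62), and Ryr1 lies under the filter level on every array.

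Both calsequestrins bind calcium inside the store. Casq2 is the cardiac form and Casq1 the form of fast skeletal muscle. Because the calsequestrin pair gave the only call and the clearest contrast, the start regions of both genes are shown, from 250 bases before to 50 bases after the gene start as RefSeq gives them on GRCm38.p6. The Casq1 region is chr1:172219846-172220145 on the minus strand and the Casq2 region chr3:102086165-102086464 on the plus strand.
Casq1: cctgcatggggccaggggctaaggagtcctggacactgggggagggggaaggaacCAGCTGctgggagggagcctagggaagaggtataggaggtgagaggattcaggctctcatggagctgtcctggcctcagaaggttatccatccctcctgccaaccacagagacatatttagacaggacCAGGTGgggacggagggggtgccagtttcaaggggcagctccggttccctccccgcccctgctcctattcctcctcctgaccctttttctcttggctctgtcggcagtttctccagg
Casq2: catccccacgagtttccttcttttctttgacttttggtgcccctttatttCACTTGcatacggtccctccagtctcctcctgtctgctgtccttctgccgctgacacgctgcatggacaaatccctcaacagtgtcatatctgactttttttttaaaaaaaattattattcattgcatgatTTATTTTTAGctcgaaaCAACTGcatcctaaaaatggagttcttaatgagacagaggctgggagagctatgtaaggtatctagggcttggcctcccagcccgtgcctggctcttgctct
Capitals mark matches on either strand to an E-box (CANNTG) and, in Casq2, to a MEF2 motif, TTATTTTTAG, which starts 69 bases before the gene start. Neither window holds a GATA motif (AGATAA or AGATAG, or with a leading T, TGATAA or TGATAG). Of all 32851 such windows in RefSeq's set 72.3% hold an E-box, 1.86% a MEF2 motif and 29.8% a GATA motif. Windows were given for 7 of the 10 genes, and GATA motifs stood in 2 of them, Pln and Slc8a1. A match describes the letters and not a bound site.

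Casq1 read 10.04, 10.33 and 10.20 log2 units in mutant replicates 1 to 3, against 10.59, 10.62 and 10.59 in Wild-Type replicates 1 to 3. Every mutant sample was below every Wild-Type sample, and the Wild-Type values lay closer together than the mutant ones. The means were 10.19 ± 0.15 in mutants and 10.60 ± 0.02 in Wild-Type (SD, n = 3 each), or intensities of 1172 and 1552. The difference was -0.41 (SE 0.08, 95% interval -0.60 to -0.22), 1.33-fold lower in mutants, with a limma adjusted p of 0.0467. This call lay at the threshold. It was lost without any 1 of the 6 arrays, with an adjusted p from 0.0551 (without mutant replicate 2) to 0.207 (without mutant replicate 1) and 0.0566 without Wild-Type replicate 1, while the difference stayed between -0.48 and -0.33. Only 1 probe set reads Casq1, so there is no second reading of it on these arrays.

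Casq2 read 12.72, 12.67 and 12.61 in mutants, against 12.44, 12.60 and 12.51 in Wild-Type. The genotypes did not overlap, though the lowest mutant and the highest Wild-Type value differed by less than the SD of either group. The means were 12.67 ± 0.06 in mutants and 12.52 ± 0.08 in Wild-Type, a difference of 0.15 (SE 0.05, 95% interval 0.03 to 0.27) that did not pass (adjusted p = 0.225). Its probe set, also the only one for the gene, carries the suffix _s_at, by which Affymetrix marks probes shared by several transcripts.

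Differences within an array show whether paralogs changed unequally. The log2 ratio of the Casq2 to the Casq1 probe set was 2.69, 2.34 and 2.41 in mutants and 1.86, 1.98 and 1.92 in Wild-Type. It was higher in each mutant than in each Wild-Type sample, with a mean difference of 0.56 or 1.47-fold. This restates the results above: with Casq1 lower and Casq2 higher without overlap, the ratio could not overlap. The test below could then only give its smallest p. The exact permutation test, two-sided, gave p = 0.1, the smallest that 3 against 3 arrays allow (0.4 adjusted over the 4 pairs compared). Without Wild-Type replicate 1 the difference was 0.53.

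Skeletal muscle markers were read beside Casq1. Of 10 skeletal muscle markers 4 were above the filter level, and 1 of them, Tnni2, fast troponin I, fell by 1.04 (adjusted p = 0.0217), with 6.94, 7.08 and 6.68 in mutants and 8.27, 7.82 and 7.71 in Wild-Type. Its probe set carries the suffix _x_at, which marks probes that may also bind other transcripts. It was dim, with mean intensities of 120 in mutants and 248 in Wild-Type, and did not pass in the limma fit without the filter (adjusted p = 0.0700). The other 3 above the filter level did not pass, with -0.29 for Mylpf, -0.19 for Myh8 and 0.31 for Mybpc2. Like Tnni2, Mylpf was lower in mutants without overlap. So was Actn3, under the filter level, at 5.09 to 5.40 in mutants and 5.70 to 5.87 in Wild-Type. The rest of the list overlapped, and 9.76% of all tested genes were lower without overlap. The summed intensity of all 10 was 711 to 771 in mutants and 851 to 992 in Wild-Type, without overlap. Without Tnni2, left out after the values were seen, the sum of the other 9 was 607 to 635 in mutants and 570 to 765 in Wild-Type, and the groups overlapped. The myogenic factors Myog and Myod1, which define skeletal muscle cells, were under the filter level on all 6 arrays, at 3.71 to 4.61 and 5.10 to 6.14 in mutants and 3.47 to 3.99 and 4.68 to 5.53 in Wild-Type. The part of such cells in the Casq1 difference was not tested.

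Release channels span the membrane of the store. Ryr2, the cardiac ryanodine receptor, read 11.43, 11.27 and 11.36 in mutants, against 11.14, 11.42 and 11.56 in Wild-Type. The mutant values lay inside the Wild-Type range, with a difference of -0.02 (95% interval -0.24 to 0.20, adjusted p = 0.943). A dimmer Ryr2 probe set, 1421126_at, read 6.64, 6.64 and 6.81 in mutants and 6.58, 8.76 and 7.31 in Wild-Type, where replicate 2 was far above the others. Its difference of -0.85 did not pass (adjusted p = 0.423) and was -0.25 without Wild-Type replicate 2.

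Ryr1, the skeletal muscle ryanodine receptor, was near background. Its brighter probe set read 3.63, 3.60 and 2.90 in mutants and 3.29, 4.32 and 4.46 in Wild-Type, intensities of 7.44 to 12.35 in mutants and 9.77 to 22.05 in Wild-Type, all under the filter level. The groups overlapped, and at such intensities a ratio says little: the Ryr2 to Ryr1 log2 ratio was 7.98 ± 0.42 in mutants and 7.35 ± 0.44 in Wild-Type (SD, n = 3 each; exact permutation p = 0.3). The skeletal muscle SERCA pump gene Atp2a1 was likewise under the filter level, at 2.82 to 3.56 in mutants and 2.91 to 3.39 in Wild-Type. The Atp2a2 to Atp2a1 log2 ratio differed by -0.17 (exact permutation p = 0.8). Of the skeletal paralogs, Casq1 was thus read far above background, and neither Ryr1 nor Atp2a1 was.

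**Figure D2:**
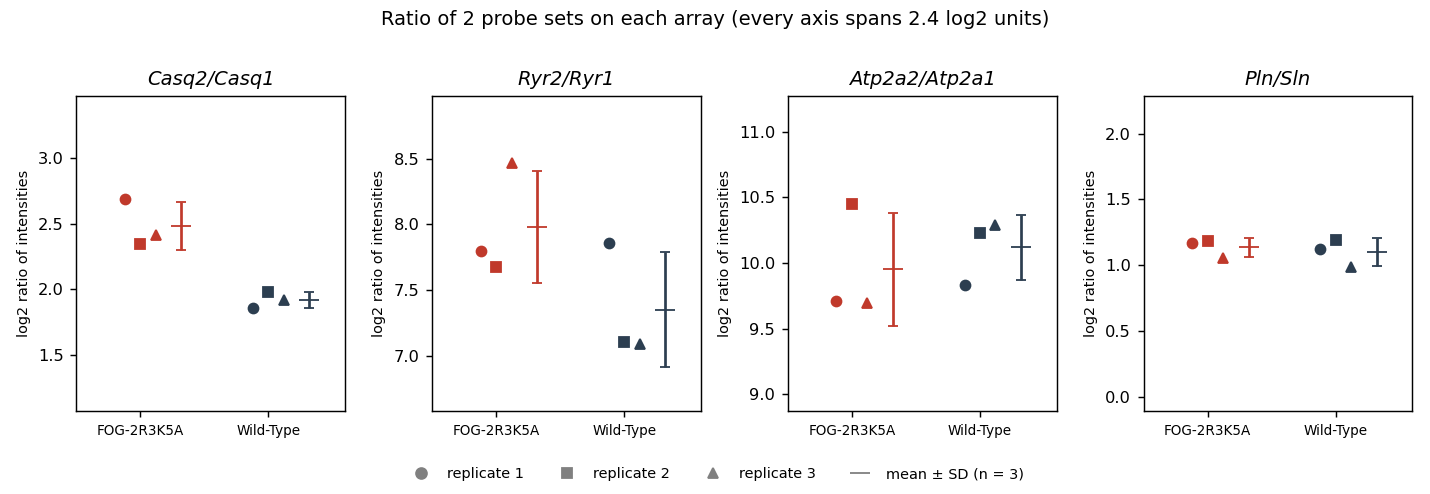
Log2 ratio of the intensities of 2 probe sets on each array (vertical axis), for 3 cardiac over skeletal paralog pairs and for the SERCA inhibitors Pln over Sln, with FOG-2R3K5A left in red and Wild-Type right in blue; bars give the mean and SD of 3 arrays. The Casq2/Casq1 ratio was 2.34 to 2.69 in mutants and 1.86 to 1.98 in Wild-Type, and the other 3 ratios overlapped.

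Jph2 and Trdn hold the release site together. Junctophilin, the product of Jph2, ties the store membrane to the cell membrane, and triadin, the product of Trdn, links calsequestrin to the ryanodine receptor. Jph2 read 10.46, 10.48 and 10.17 in mutants, against 10.39, 10.94 and 10.55 in Wild-Type. Wild-Type replicate 1 lay among the mutants, and the difference of -0.26 (95% interval -0.58 to 0.06) did not pass (adjusted p = 0.428). It was -0.10 without Wild-Type replicate 2, the highest array. A second Jph2 probe set gave -0.33, again with Wild-Type replicate 2 highest (9.10, against 7.98 or less on the other Wild-Type arrays and 8.01 or less in mutants).

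Trdn read 11.74, 11.67 and 11.80 in mutants, against 11.58, 11.66 and 11.72 in Wild-Type, a difference of 0.08 (95% interval -0.05 to 0.21, adjusted p = 0.552) with groups that overlapped. Of its 6 probe sets all 6 were above the filter level and had positive differences, from 0.08 to 0.33, and 0 passed. The largest was 0.33 at 1426142_a_at, with 10.81, 10.68 and 10.68 in mutants and 10.22, 10.59 and 10.36 in Wild-Type (adjusted p = 0.182). That probe set and 1426144_x_at did not overlap between genotypes. Probe sets of 1 gene can share transcripts and are not separate measurements of the genotype, and suffixes such as _x_at mark probes that may also bind other transcripts.

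Atp2a2 encodes SERCA2, the pump that refills the store in the heart. By its main probe set it was level between genotypes, at 13.27, 13.27 and 13.18 in mutants against 13.22, 13.26 and 13.20 in Wild-Type. The difference was 0.02 (95% interval -0.07 to 0.10, adjusted p = 0.887). The brightest array controls read 13.4 in each mutant and 13.4 to 13.6 in Wild-Type, so Atp2a2 and Pln lay near the top of the scale. A loss of linearity there was not tested.

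The other Atp2a2 probe sets did not read alike. The second brightest, 1452363_a_at, differed by -0.02. At 1427250_at the values were 11.44, 11.43 and 11.31 in mutants and 11.58, 11.62 and 11.56 in Wild-Type, a difference of -0.19 (95% interval -0.32 to -0.06). At 1427251_at they were 9.16, 9.28 and 9.28 in mutants and 9.61, 10.21 and 9.73 in Wild-Type, a difference of -0.61 (-0.94 to -0.29).

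At 1437797_at they were 8.94, 8.91 and 8.89 in mutants and 9.20, 9.74 and 9.71 in Wild-Type, a difference of -0.64 (-0.95 to -0.32). At 1443551_at, the dimmest, they were 8.04, 8.08 and 8.29 in mutants and 8.59, 9.54 and 9.08 in Wild-Type, a difference of -0.93 (-1.40 to -0.47), 1.91-fold lower in mutants. In all 4 of these probe sets every mutant sample was below every Wild-Type sample, where 10.5% of all probe sets were lower without overlap. The 4 were read on the same 6 samples and are not separate measurements of the genotype. The order of the 6 differences followed the order of brightness. In the fit of 22518 probe sets 0 of the 6 passed (limma adjusted p of 0.0794 to 0.197 for the 4 that were lower), where 0.99% of all probe sets did. At an unadjusted p under 0.05 there were 4 of 6, against 13.8% of all probe sets.

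The calls depended on the arrays and their weights. Without Wild-Type replicate 1, whose values were the lowest of its group at 1427251_at, 1437797_at and 1443551_at, these 3 passed with differences of -0.73, -0.81 and -1.18 (limma adjusted p = 0.0453, 0.00795 and 0.0170). With all 6 arrays and array quality weights the same 3 passed as well, with differences of -0.58, -0.63 and -0.95 (limma adjusted p = 0.0335, 0.0265 and 0.0173). Both settings raised the calls at large: of all genes 451 and 429 passed, against 196 in the main fit. Without any other single array none of the 3 passed (limma adjusted p of 0.0871 to 0.392). It is not stated which part of the transcript or which isoform each probe set reads, so these values cannot be assigned to a particular Atp2a2 RNA. Among the array controls that read the 3′ and 5′ ends of 1 transcript, the log2 difference of 3′ and 5′ signal for beta-actin was 0.280 to 0.286 in mutants and 0.242 to 0.327 in Wild-Type. For Gapdh it was -0.165 to -0.146 in mutants and -0.143 to -0.124 in Wild-Type, and for the transferrin receptor 1.48 to 1.56 in mutants and 1.504 to 1.93 in Wild-Type, highest in Wild-Type replicate 2. The part of RNA quality in the Atp2a2 differences was not tested.

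**Figure D3:**
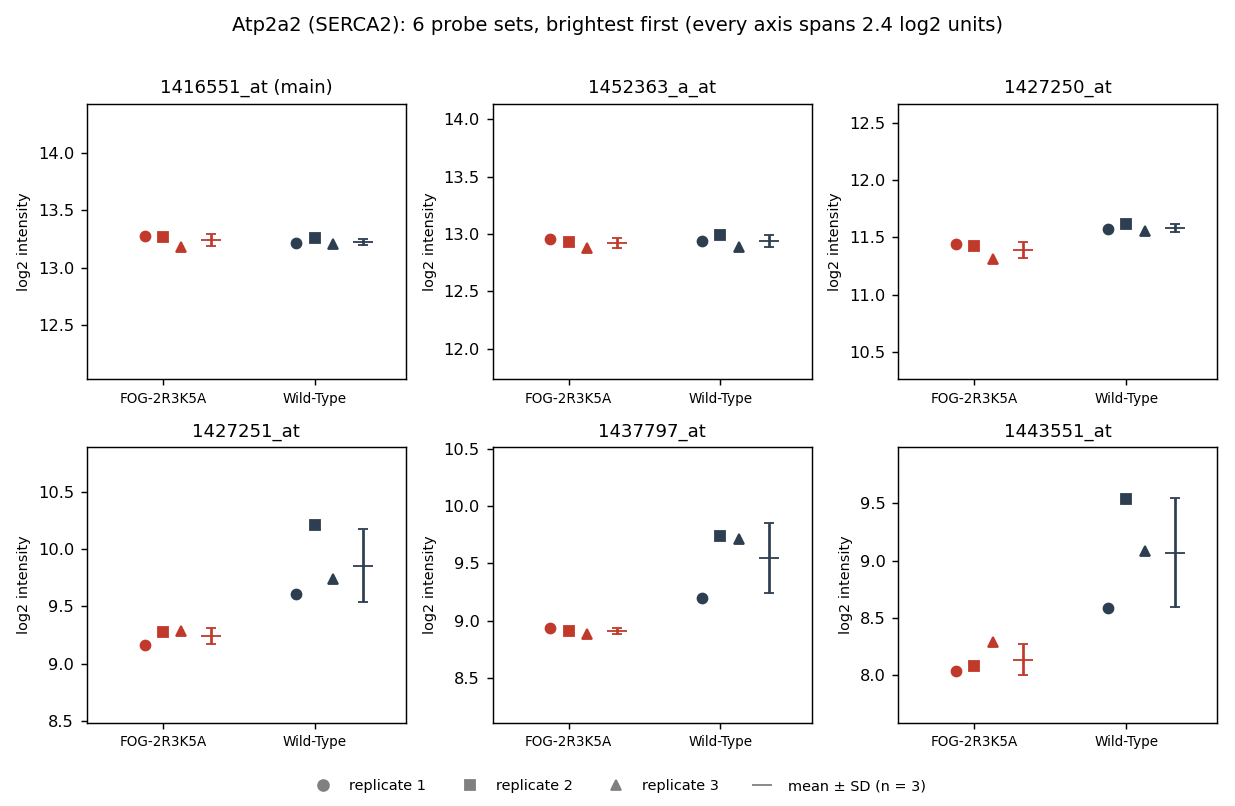
Log2 intensity (vertical axis) of the 6 Atp2a2 probe sets on each array, ordered from the brightest, with FOG-2R3K5A left in red and Wild-Type right in blue and bars for the mean and SD of 3 arrays. The genotypes overlap at the brightest pair, near 13, and are apart at the other 4, most at 1443551_at (8.04 to 8.29 in mutants, 8.59 to 9.54 in Wild-Type).

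Pln and Sln encode phospholamban and sarcolipin, small membrane proteins that slow the SERCA pump. Pln is known mainly from ventricles and Sln from atria in the mouse. Pln read 13.19, 13.18 and 13.24 in mutants, against 13.05, 13.15 and 13.17 in Wild-Type. The groups did not overlap, by a margin of 0.01 log2 units, and the difference of 0.08 (95% interval -0.02 to 0.18) did not pass (adjusted p = 0.424). Its other 2 probe sets gave 0.12 and 0.08, also without overlap.

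Sln read 12.02, 11.997 and 12.19 in mutants, against 11.92, 11.96 and 12.19 in Wild-Type, a difference of 0.04 (95% interval -0.14 to 0.22, adjusted p = 0.834). Replicate 3 was the highest in both genotypes. A second Sln probe set was under the filter level. The Pln to Sln log2 ratio was 1.14 ± 0.07 in mutants and 1.10 ± 0.11 in Wild-Type (SD, n = 3 each; exact permutation p = 0.7). Beside these, the summed intensity of 6 atrial markers was 32159 to 32728 in mutants and 30307 to 31781 in Wild-Type, and that of 4 ventricular markers 24334 to 25479 in mutants and 23862 to 25138.5 in Wild-Type. Of the atrial markers 0 of 6 and of the ventricular markers 0 of 4 passed by limma, with 2 and 1 at an unadjusted p under 0.05. The atrial sum follows its 3 brightest markers, of which Myl7 had 0.14, Nppa 0.10 and Myl4 0.0070, while Kcna5, Nr2f2 and Tbx5 had -0.27, -0.25 and -0.16. The ventricular marker at an unadjusted p under 0.05 was Hey2, with -0.25. Irx4 had -0.13, while Myl2 and Myl3 had 0.10 and 0.05. The share of atrial tissue in these hearts was not tested.

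Slc8a1 encodes the cardiac sodium-calcium exchanger, the main route of calcium out of the heart muscle cell. It read 11.53, 11.50 and 11.44 in mutants, against 11.45, 11.39 and 11.49 in Wild-Type, a difference of 0.05 (95% interval -0.07 to 0.18, adjusted p = 0.698) with groups that overlapped. A second probe set, 1425817_a_at, read 10.28, 10.12 and 10.19 in mutants and 9.90, 10.02 and 9.98 in Wild-Type. There every mutant was above every Wild-Type sample, with a mean difference of 0.23 (95% interval 0.06 to 0.41) that did not pass (adjusted p = 0.235).

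Over all 10 genes 29 probe sets were read, of which 25 were above the filter level, and 0 passed when each was tested on its own, Casq1 included (limma adjusted p = 0.0646). At an unadjusted p under 0.05 there were 11, against 13.8% of all 22518 probe sets. Of the 11, Atp2a2 gave 4 and Trdn 3, and probe sets of 1 gene are not separate measurements of the genotype. The genotypes did not overlap at 12 of the 25, of which 7 were higher and 5 lower in mutants, against 20.3% of all 22518 probe sets (9.8% higher and 10.5% lower). The 5 that were lower were the single one of Casq1 and 4 of Atp2a2, and the 7 that were higher came from Pln (3), Trdn (2), Casq2 and Slc8a1. Within a gene the direction was shared by all probe sets above the filter level, except in Atp2a2, where 1 of 6 was positive. Without Wild-Type replicate 2 that sharing ended for Jph2 (1421453_at at 0.084), Slc8a1 (1440201_at at -0.11) and Ryr2 (main probe set at 0.0032).

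**Figure D4:**
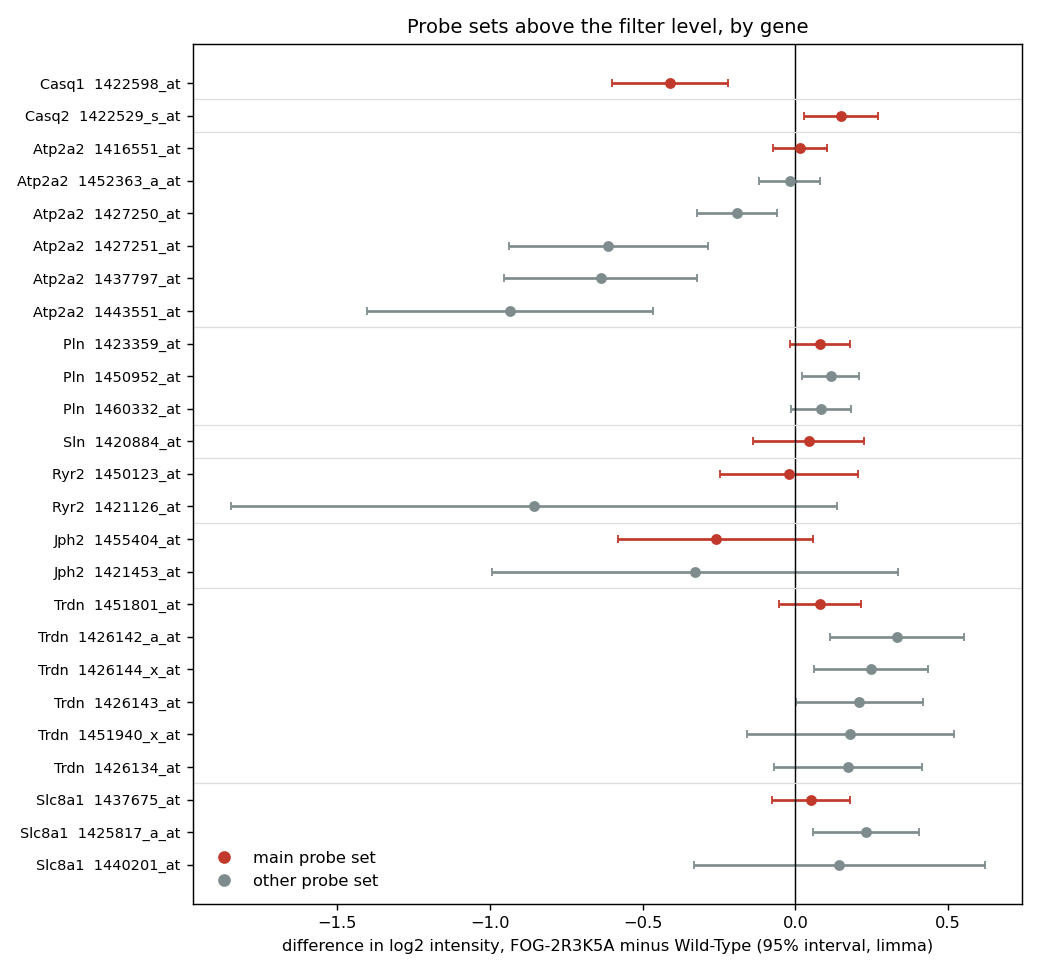
Difference in log2 intensity, FOG-2R3K5A minus Wild-Type, with its 95% interval from limma (horizontal axis), for the 25 probe sets above the filter level, grouped by gene with the brightest first. Main probe sets are red and others grey. The Atp2a2 probe sets run from 0.02 to -0.93 while those of Pln and Trdn are all above 0.

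By their main probe sets, Atp2a2, Pln, Slc8a1, Trdn, Sln and Ryr2 had intervals within -0.24 and 0.22. For Jph2 the interval reached -0.58. Over the 6 arrays the main probe set of Jph2 varied most among the tested 9 (SD 0.25), followed by Casq1 (0.24) and Ryr2 (0.14), and that of Atp2a2 least (0.04).

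The genes whose values followed these 3 most closely over the 6 arrays are given as a description, chosen as the highest of 11112 correlations each. For Casq1 they were Atp2a3, another SERCA pump gene (Pearson r = 0.992), Shd (0.985) and Pidd1 (0.985). Shd, an adaptor protein gene, passed with a difference of -0.90 (adjusted p = 0.0365), and Atp2a3 had -0.38 (adjusted p = 0.214). For Jph2 they were Ubxn6, Mrpl18 and Cluh (0.997 to 0.998), and for Ryr2 Dtna, Ndel1 and Cox10 (0.996 to 0.999), all 6 with an adjusted p above 0.4. With 6 arrays such values are common: 142 genes followed Jph2 at an r above 0.95, 33 followed Casq1 and 28 followed Ryr2.

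Around these genes stand other pumps, regulators, channels and kinases of the calcium cycle. Of 51 such genes 44 had a probe set of their own, 35 were above the filter level, and 0 passed by limma. At an unadjusted p under 0.05 there were 9, of which 3 had positive and 6 negative differences, where 14.7% of all tested genes stood at that level. The median difference of the 35 was -0.06, and 21 were negative, where 52.8% of all tested genes were. The genotypes did not overlap for 10 of them (4 higher, 6 lower), against the share of all tested genes given above.

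Cacna1c, the pore of the cardiac L-type calcium channel, read 9.58, 9.53 and 9.18 in mutants, against 9.85, 10.13 and 9.90 in Wild-Type, a difference of -0.53 (SE 0.12, adjusted p = 0.0723). Every mutant was below every Wild-Type sample. Of the other entry and exchanger genes above the filter level, Stim1, Orai1, Cacnb2 and Slc8b1 had -0.22, -0.20, -0.17 and -0.06, so that 5 of 5 were negative, where 52.8% of all tested genes were.

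Of 9 kinase, anchoring, phosphatase and phosphodiesterase genes 7 were negative and 0 passed. Ppp1r1a, an inhibitor of protein phosphatase 1, had -0.40 (adjusted p = 0.132), with 9.22, 9.15 and 9.19 in mutants and 9.66, 9.34 and 9.76 in Wild-Type. Akap6, an anchoring protein that holds protein kinase A near the ryanodine receptor, had -0.37 (adjusted p = 0.146). Of the calmodulin-dependent kinase genes, Camk2a had -0.39 and Camk2g -0.23 (adjusted p = 0.227 and 0.164), and Camk2d, the main cardiac form, -0.10. Of the 9 genes 4 were lower without overlap (Ppp1r1a, Akap6, Camk2a and Camk2g), where 9.76% of all tested genes were. These 4 were named for their small p, which favours groups that do not overlap.

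Pumps of other kinds went both ways. Atp2b1, a calcium pump of the cell membrane, read 10.15, 10.06 and 10.07 in mutants, against 9.78, 9.87 and 9.61 in Wild-Type, a difference of 0.34 (SE 0.09, adjusted p = 0.0996) without overlap. Atp2a3 read 6.43, 6.75 and 6.59 in mutants and 6.95, 6.96 and 7.01 in Wild-Type, near the filter level. Itpr2, an IP3-gated release channel, had 0.21 (adjusted p = 0.261) without overlap, and Hrc, a calcium-binding protein of the store, 0.21 (adjusted p = 0.312) with overlap.

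Single arrays and settings moved this count to at most 2. Without Wild-Type replicate 1, Akap6 (-0.49, adjusted p = 0.0227) and Stim1 (-0.37, adjusted p = 0.0398) passed, and without Wild-Type replicate 2 Ppp1r1a did (-0.52, adjusted p = 0.0342). Cacna1c passed with the mean of the probe sets of a gene (-0.54, adjusted p = 0.0159).

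**Figure D5:**
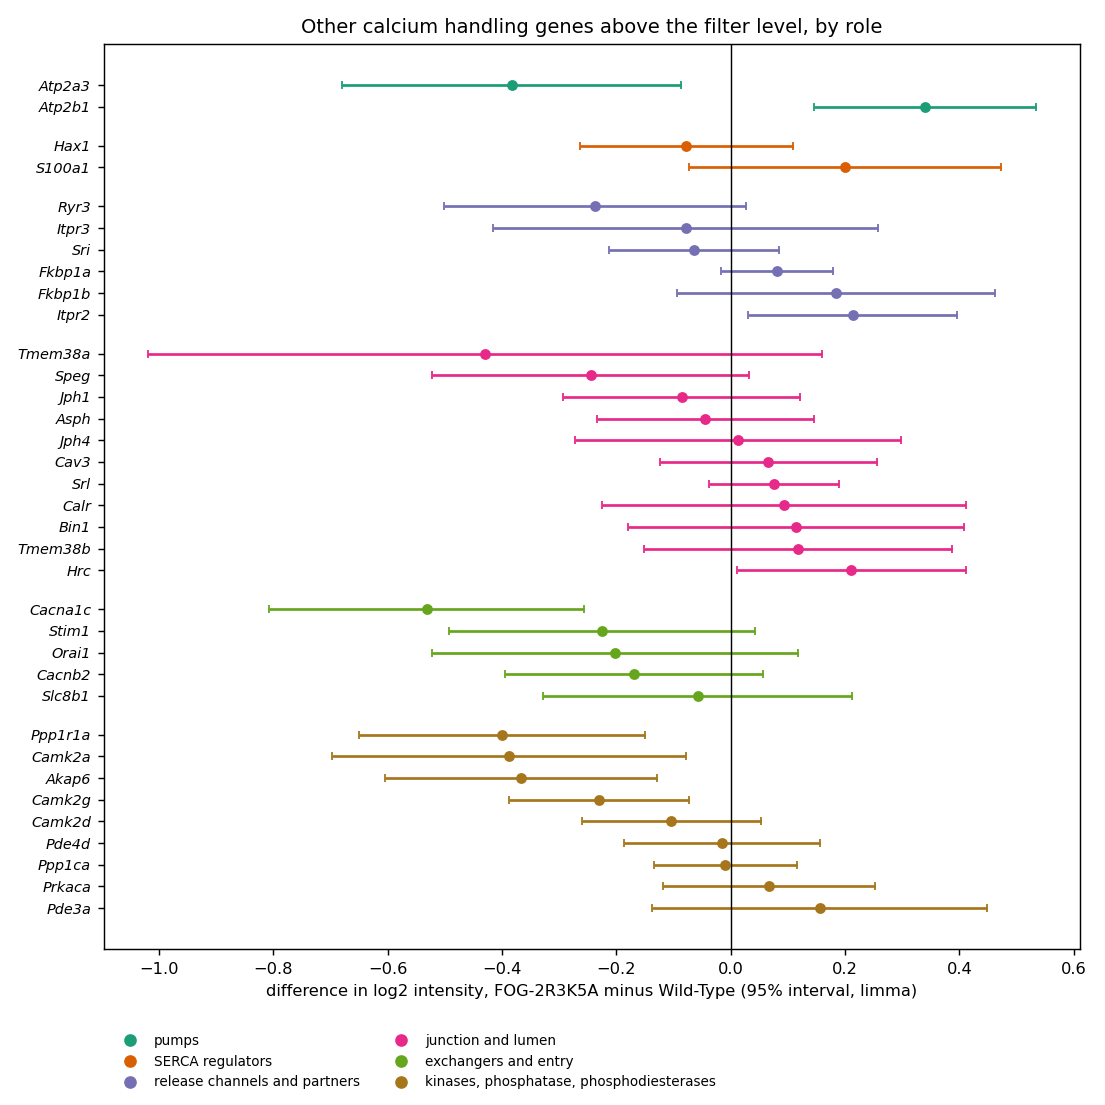
Difference in log2 intensity, FOG-2R3K5A minus Wild-Type, with its 95% interval from limma (horizontal axis), for the 35 other calcium handling genes above the filter level, coloured by role. Differences run from -0.53 (Cacna1c) to 0.34 (Atp2b1), and 0 passed over all tested genes.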

How the data were processed

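Total RNA (3 µg per sample) was labelled with biotin and hybridised, per the labels' protocols. Each probe set has a linear intensity per array in the deposited values. Which software and normalization the authors used is unstated in those sources. Array medians lay 0.120 log2 units apart, so the deposited intensities were floored at 1 and log2-transformed with no further normalization. Of 45101 probe sets 64 were controls, 34945 carried 1 gene symbol in the platform annotation and were used, and 932 with several or 9160 with none were not. The brightest probe set stood for each of 18193 genes, and 7080 genes at or below the median probe set mean were left out. The test was two-sided limma 3.58.1 (lmFit, then eBayes with an intensity trend) under R 4.3.3. Probe sets were tested likewise. Ratios used exact permutation tests. The fit was tested on simulated data. The number of arrays limits the precision.

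The genes, lists and tests were chosen with earlier results of these data known. Named were the 10 genes, the 8 other calcium handling genes with the smallest p, Atp2a1, up to 4 markers of a list, and for the 3 tested genes with the largest SD the 3 closest in pattern. Hrc, Stim1, Orai1, Cacnb2, Slc8b1 and Camk2d fall outside this rule and were named after their values were seen. From the skeletal muscle, atrial and lung lists more than 4 markers were named, which also falls outside it. Marker lists for smooth muscle, lung, erythroid and thymus cells had 0 members that passed by limma, with 1, 1, 0 and 1 at an unadjusted p under 0.05. The 7 markers of heart muscle were listed in full. Alternatives covered normalization, offset, filter, probe set choice, variance model, replicate number as a block and each array left out.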

Additional observations from a re-analysis of the deposited data

How the results depend on the processing

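The fall of Casq1 kept its direction in 15 of 15 alternatives, many of which could not reverse it. Leaving out 1 array cannot reverse groups without overlap. Filter, variance model, replicate block and the mean of its only probe set leave the difference unchanged. The call was kept in only 3 alternatives, an offset of 16 (adjusted p = 0.0459), a stricter filter (0.0496) and the replicate block (0.0414). The number of these genes that passed was therefore 0 with median centring (adjusted p of Casq1 0.0742), quantile normalization (0.0500098), no filter (0.101), no intensity trend (0.105), array quality weights (0.0554), the mean of the probe sets of a gene (0.0527) and every probe set tested on its own, and 0 to 0 with 1 array left out; the cause was not tested. Of all genes, 429 passed with array quality weights, 125 with the mean of the probe sets, 81 with no filter, 119 with no intensity trend and 37 to 451 with 1 array left out. Of the other calcium handling genes 2 passed with array quality weights (Atp2b1 and Ppp1r1a), 1 with the mean of the probe sets, 1 with the replicate block (Cacna1c) and 0 to 2 with 1 array left out. Small differences changed sign. Atp2a2 had -0.40 with the mean of its probe sets (adjusted p = 0.0845), -0.0065 with quantile normalization and -0.00012 to 0.045 with 1 array left out. Its probe set 1452363_a_at had 0.0095 with array quality weights, 0.023 with median centring and -0.047 to 0.0081 with 1 array left out. Ryr2 had 0.021 with median centring and -0.14 to 0.069 with 1 array left out, and Sln -0.033 with array quality weights and -0.014 to 0.13. With 1 array left out, Jph2 probe set 1421453_at ran from -0.59 to 0.084, Slc8a1 probe set 1440201_at from -0.11 to 0.32 and the Pln to Sln ratio from -0.021 to 0.083. The 4 lower Atp2a2 probe sets stayed lower in the 12 alternatives tried, chosen after seeing the data. Of these 4 probe sets 3 passed with array quality weights and without Wild-Type replicate 1. The Casq2 to Casq1 ratio stayed higher in 11 alternatives (0.46 to 0.63). Many of these alternatives could not reverse either direction. Leaving out 1 array cannot reverse groups without overlap, the replicate block leaves a difference unchanged, and median centring leaves a ratio unchanged. Same-numbered samples did not deviate together in every pair (correlations -0.06, 0.13 and 0.41), so the numbers were not taken to pair the samples. With the replicate block 234 genes passed, and among the probe sets described 1443551_at of Atp2a2 did (adjusted p = 0.0459).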
